A study of Mus musculus with 16 samples.

Results

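The nuclear-encoded genes of the respiratory chain were examined in the brains of newborn mice that had been sired with fresh or freeze-dried sperm. Members were the protein-coding genes whose symbols begin with Nduf, Sdha, Sdhb, Sdhc, Sdhd, Uqcr, Cox4, Cox5, Cox6, Cox7, Cox8 or Atp5. The rule gave 100 symbols, of which 96 had a probe on the array, out of 45622 genes and unnamed features. They comprised 44 members of complex I, 8 of complex II, 8 of complex III, 19 of complex IV and 17 of complex V. No probe on the array was mapped to Cox5b, Ndufb1, Ndufb4b or Ndufb4c. Of the 96 members, 93 passed the filter on dim probes, and each of these 93 was well above background in all 16 animals. The other 3, Cox7b2, Cox8b and Cox8c, are tissue isoforms of complex IV.

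Whole brain was taken from C57BL/6 neonates at postnatal day 1, with 1 animal per array and 4 animals per group. The fresh group came from sperm that had not been dried. The freeze-dried (FD) group came from FD sperm with no further treatment. For the irradiated group such sperm received X-rays at a dose of 5 Gy, and for the heated group it was kept for 1 h at 95 °C. All 3 treated groups therefore share the freeze-drying step. The treatments were applied to sperm, so every brain measured was itself untreated. Of 5 neuron markers, at least 4 were well above background in every animal. The labels do not say whether animals of a group were littermates, and the p-values then measure only the spread between these animals.

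The respiratory chain of the inner mitochondrial membrane passes electrons from NADH through complex I, or from succinate through complex II, to complex III and then to complex IV, which reduces oxygen. Complexes I, III and IV pump protons, and complex V, the ATP synthase, uses the returning protons to make ATP. Most subunits are encoded in the nucleus, and neurons depend heavily on this pathway. Several complex IV subunits exist as a ubiquitous form and a second form used in heart and skeletal muscle, in testis or under low oxygen. None of the 13 mitochondrially encoded subunits had a mapped probe, so every value below concerns nuclear genes.

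Promoter windows of the members were examined first, because nuclear respiratory factor 1 (NRF1) is known to bind many of these genes. RefSeq windows on build GRCm38.p6, covering 250 bases before and 50 bases after each gene start, were found for 79 of the 96 members, as 84 windows. The NRF1 letters, GCGC followed by A, any base and GCGC again, were searched on both strands, as were all other motifs. They were in 26.2% of the members' windows and in 4.6% of all 32851 windows of that length. By complex the share was 24.4% of 41 windows for complex I, 57.1% of 7 for complex II, 1 of 5 windows for complex III, 7.69% of 13 for complex IV and 33.3% of 18 for complex V. The letters AANATGGCG of YY1 were in 14.3% of the members' windows and in 2.38% of all windows. The letters CCGGAAGT, bound by ETS factors, were in 5.95% and 3.89%, and TATAAA was in 11.9% and 13.6%. No motif searched contains another. The members' windows held a median of 20 CpG dinucleotides, and all windows held 7, so base composition differed along with the motif shares. None of the 4 isoform windows held the NRF1 letters, and their median was 8.5 CpG. Of the 13 complex IV windows only that of Cox6a1 held these letters, so their absence is not particular to the isoforms.

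The 250 bases before the start of 6 members are given below, 5′ to 3′ on the gene's strand, with matches to the NRF1 or ETS letters in capitals. Cox6a1, Ndufs6 and Atp5h show how the matches lie in ubiquitous subunits of complexes IV, I and V. Cox6b2 and Cox7a1 are isoforms without a match, and most other complex IV windows have none either. Ndufa10 is the complex I member with the smallest p-value in the comparison of heated with freeze-dried. The windows are chr5:115348959-115349208 (minus strand) for Cox6a1, chr13:73328483-73328732 (minus) for Ndufs6, chr11:115419920-115420169 (minus) for Atp5h, chr7:4753095-4753344 (minus) for Cox6b2, chr7:30183921-30184170 (plus) for Cox7a1 and chr1:92473759-92474008 (minus) for Ndufa10.
Cox6a1: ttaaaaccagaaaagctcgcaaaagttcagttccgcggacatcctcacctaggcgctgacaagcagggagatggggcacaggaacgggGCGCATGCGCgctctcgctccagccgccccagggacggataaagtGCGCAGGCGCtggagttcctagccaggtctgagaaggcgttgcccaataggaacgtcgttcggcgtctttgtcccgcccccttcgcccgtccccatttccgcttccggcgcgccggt
Ndufs6: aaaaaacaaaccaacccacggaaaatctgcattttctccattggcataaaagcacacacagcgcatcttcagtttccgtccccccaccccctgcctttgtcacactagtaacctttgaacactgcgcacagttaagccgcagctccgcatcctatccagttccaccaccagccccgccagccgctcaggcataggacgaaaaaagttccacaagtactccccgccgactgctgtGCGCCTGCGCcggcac
Atp5h: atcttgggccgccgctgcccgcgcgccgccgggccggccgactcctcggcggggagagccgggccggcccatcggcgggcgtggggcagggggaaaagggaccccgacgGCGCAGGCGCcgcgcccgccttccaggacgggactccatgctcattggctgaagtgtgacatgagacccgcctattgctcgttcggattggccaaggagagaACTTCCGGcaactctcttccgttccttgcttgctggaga
Cox6b2: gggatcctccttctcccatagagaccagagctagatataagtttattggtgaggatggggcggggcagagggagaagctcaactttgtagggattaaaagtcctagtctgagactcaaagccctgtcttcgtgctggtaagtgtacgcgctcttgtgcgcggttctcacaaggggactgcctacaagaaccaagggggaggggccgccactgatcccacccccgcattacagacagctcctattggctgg
Cox7a1: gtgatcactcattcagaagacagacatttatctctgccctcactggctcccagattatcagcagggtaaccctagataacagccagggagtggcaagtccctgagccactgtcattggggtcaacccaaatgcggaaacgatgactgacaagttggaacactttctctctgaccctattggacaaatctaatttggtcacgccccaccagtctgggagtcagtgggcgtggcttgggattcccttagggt
Ndufa10: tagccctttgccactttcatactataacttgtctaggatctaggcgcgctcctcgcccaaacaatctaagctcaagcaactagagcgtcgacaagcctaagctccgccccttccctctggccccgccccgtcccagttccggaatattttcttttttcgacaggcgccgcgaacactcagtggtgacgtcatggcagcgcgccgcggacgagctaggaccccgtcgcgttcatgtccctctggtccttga
Cox6a1 held 2 NRF1 matches, ending 152 and 107 bases before the start. The single NRF1 match of Ndufs6 ended 6 bases before it. In Atp5h an NRF1 match ended 131 bases before the start and an ETS match 31 bases before it. These are matches of letters only, and absence of a match says only that those letters are not in the window.

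Levels are log2 signals minus the 75th percentile of each array, so a level of 0 equals that percentile and a difference of 1 is a doubling. Between 59.9% and 66.1% of spots were well above background on each array, and no spot was saturated. The scanner software marked the arrays of fresh animal 3, freeze-dried animal 2 and heated animals 1 and 4 for evaluation. It marked the others as in range. The median CV of repeated probes was highest in freeze-dried animal 2, at 7.62%, against 2.55% to 5.56% elsewhere. The arrays lay on 2 slides of 8. Freeze-dried animals were all on slide 1 and heated animals all on slide 2, while the fresh and irradiated groups had 2 animals on each. Fresh animals on slide 1 and slide 2 also differ in the first part of their animal number, whose meaning the labels do not give, so slide and number cannot be told apart within that group. Markers of other tissues set some animals apart. Skeletal muscle markers summed to 17.0 times the scaling percentile in fresh animal 1 and to between 1.60 and 2.40 elsewhere, with all 10 listed markers above background in fresh animal 1 and 9 in the others. The hindbrain gene Hoxb5 was at -7.49 in fresh animal 2, -6.05 in freeze-dried animal 2, -7.17 in heated animal 2 and -7.75 in heated animal 4, and skin keratins were high in freeze-dried animal 2. Pituitary markers summed to 16.7 in fresh animal 3, 14.0 in freeze-dried animal 1 and 17.3 in heated animal 1, and to between 0.49 and 0.79 in the others. In bulk tissue, fewer cells of a type and less RNA per cell cannot be told apart.

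None of the 93 tested members passed an adjusted p of 0.05 in any of the 6 comparisons between groups (limma, Benjamini-Hochberg over all 26479 genes and features). The respiratory chain was thus without a called change after freeze-drying, irradiation or heating of the sperm. Over all genes, 0% were called for freeze-dried against fresh, 0% for irradiated against freeze-dried, 3.86% for heated against freeze-dried, 1.37% for irradiated against fresh, 2.93% for heated against fresh and 1.01% for irradiated against heated. At an unadjusted p under 0.05, 9 members (9.68%) stood out for freeze-dried against fresh, beside 9.92% of all genes. The same count was 2 (2.15%, beside 7.22%) for irradiated against freeze-dried and 17 (18.3%, beside 23.8%) for heated against freeze-dried. It was 3 (3.23%, beside 16.9%) for irradiated against fresh, 5 (5.38%, beside 17.9%) for heated against fresh and 3 (3.23%, beside 13.8%) for irradiated against heated. With slide as a block, again no member was called in any comparison, beside 0.00378% of all genes for freeze-dried against fresh, 0% for both other groups against freeze-dried, 2.46% for irradiated against fresh, 1.53% for heated against fresh and 0.684% for irradiated against heated. In that fit 5 members (5.38%, beside 8.32%) had an unadjusted p under 0.05 for freeze-dried against fresh, 0 (0%, beside 3.78%) for irradiated against freeze-dried and 2 (2.15%, beside 7.94%) for heated against freeze-dried.

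The intervals of the differences were narrow for most members. The 95% interval of the difference (limma's standard error) lay within 1.5-fold in both directions for 92 of 93 members for freeze-dried against fresh, 92 for irradiated against freeze-dried and 91 for heated against freeze-dried. Within 1.25-fold lay 77, 79 and 69 members. Cox6a2, the muscle isoform of a complex IV subunit, was outside the wider bound in each of these comparisons, and Ndufaf8, a complex I assembly factor, in the last. These intervals leave out the slide, which splits heated from freeze-dried animals entirely. With slide as a block, 92 members lay within 1.5-fold in each of the 3 comparisons, and 82, 86 and 72 within 1.25-fold, but 37 of the 93 heated minus freeze-dried differences changed sign. The median difference over the members was 0.01 for freeze-dried minus fresh, beside 0.02 over all genes. It was 0.00 for irradiated minus freeze-dried, beside 0.02, and 0.01 for heated minus freeze-dried, beside 0.02. The median within-group SD of the members was 0.093 against 0.145 over all genes (n = 4 per group). Most members lay above the scaling percentile, and genes of like signal were not compared. The lower SD therefore does not show that these genes vary less between animals. The narrowest ranges over all 16 animals belonged to Atp5j, part of the peripheral stalk of complex V, at 0.16, to Ndufa9, an accessory subunit of complex I, at 0.18, and to Atp5d, the delta subunit of F1, at 0.19. The widest belonged to Cox6a2 at 1.85, to Ndufa8, an accessory subunit of complex I, at 0.72, and to Ndufaf8 at 0.70.

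**Figure D1:**
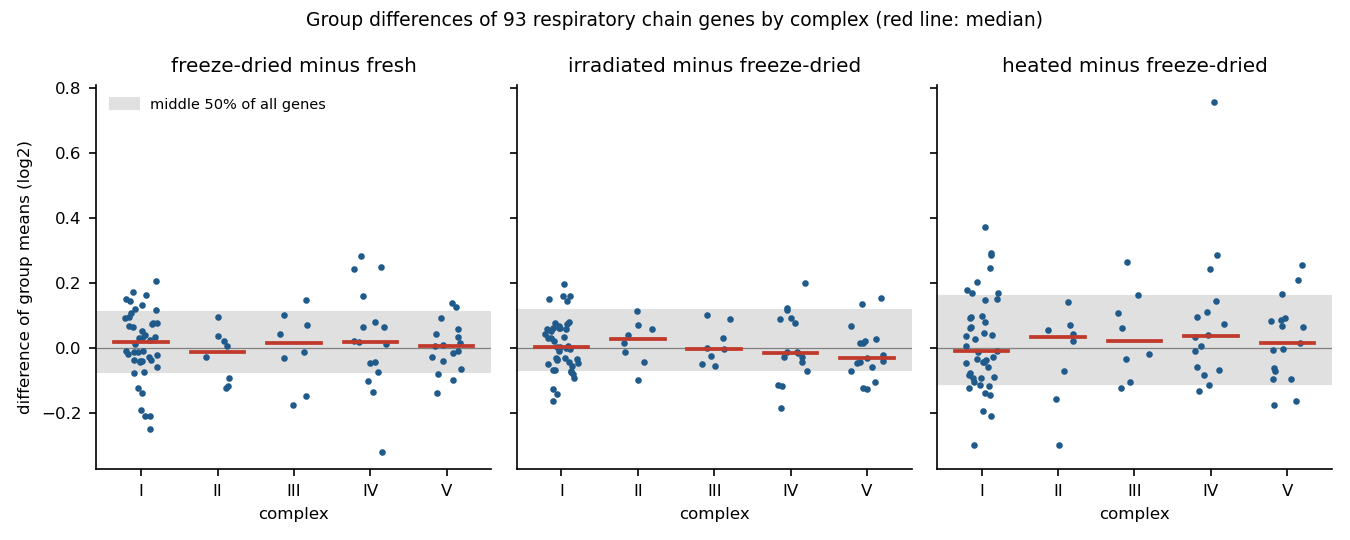
Difference of group means (log2, y axis) for each of the 93 tested members, by complex (x axis), in 3 comparisons; points are genes, red lines the medians per complex and the grey band the range between the quartiles of all 26479 genes and features. Complex medians lie near 0 in all 3 panels, between -0.03 and 0.04, and Cox6a2 at 0.76 in the right panel is the highest point.

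The median of each complex stayed within 0.04 of 0 on the log2 scale in these 3 comparisons. For freeze-dried minus fresh the median difference was 0.02 for complex I, -0.01 for II, 0.01 for III, 0.02 for IV and 0.01 for V. For irradiated minus freeze-dried it was 0.00 for complex I, 0.03 for II, 0.00 for III, -0.02 for IV and -0.03 for V. For heated minus freeze-dried it was -0.01 for complex I, 0.03 for II, 0.02 for III, 0.04 for IV and 0.01 for V. With slide as a block the latter became -0.05, -0.04, -0.07, 0.01 and -0.03, so complexes II, III and V changed sign. The within-group SD of an animal's median ranged over the complexes from 0.047 to 0.071, so the medians without the block lay within the spread between animals. By animal, the median centred level of all members was -0.13 in fresh animal 1, the lowest, and between -0.07 and 0.07 in the other 15. Fresh animal 1 is also the animal with the high skeletal muscle markers; the part of these markers in its low median was not tested.

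**Figure D2:**
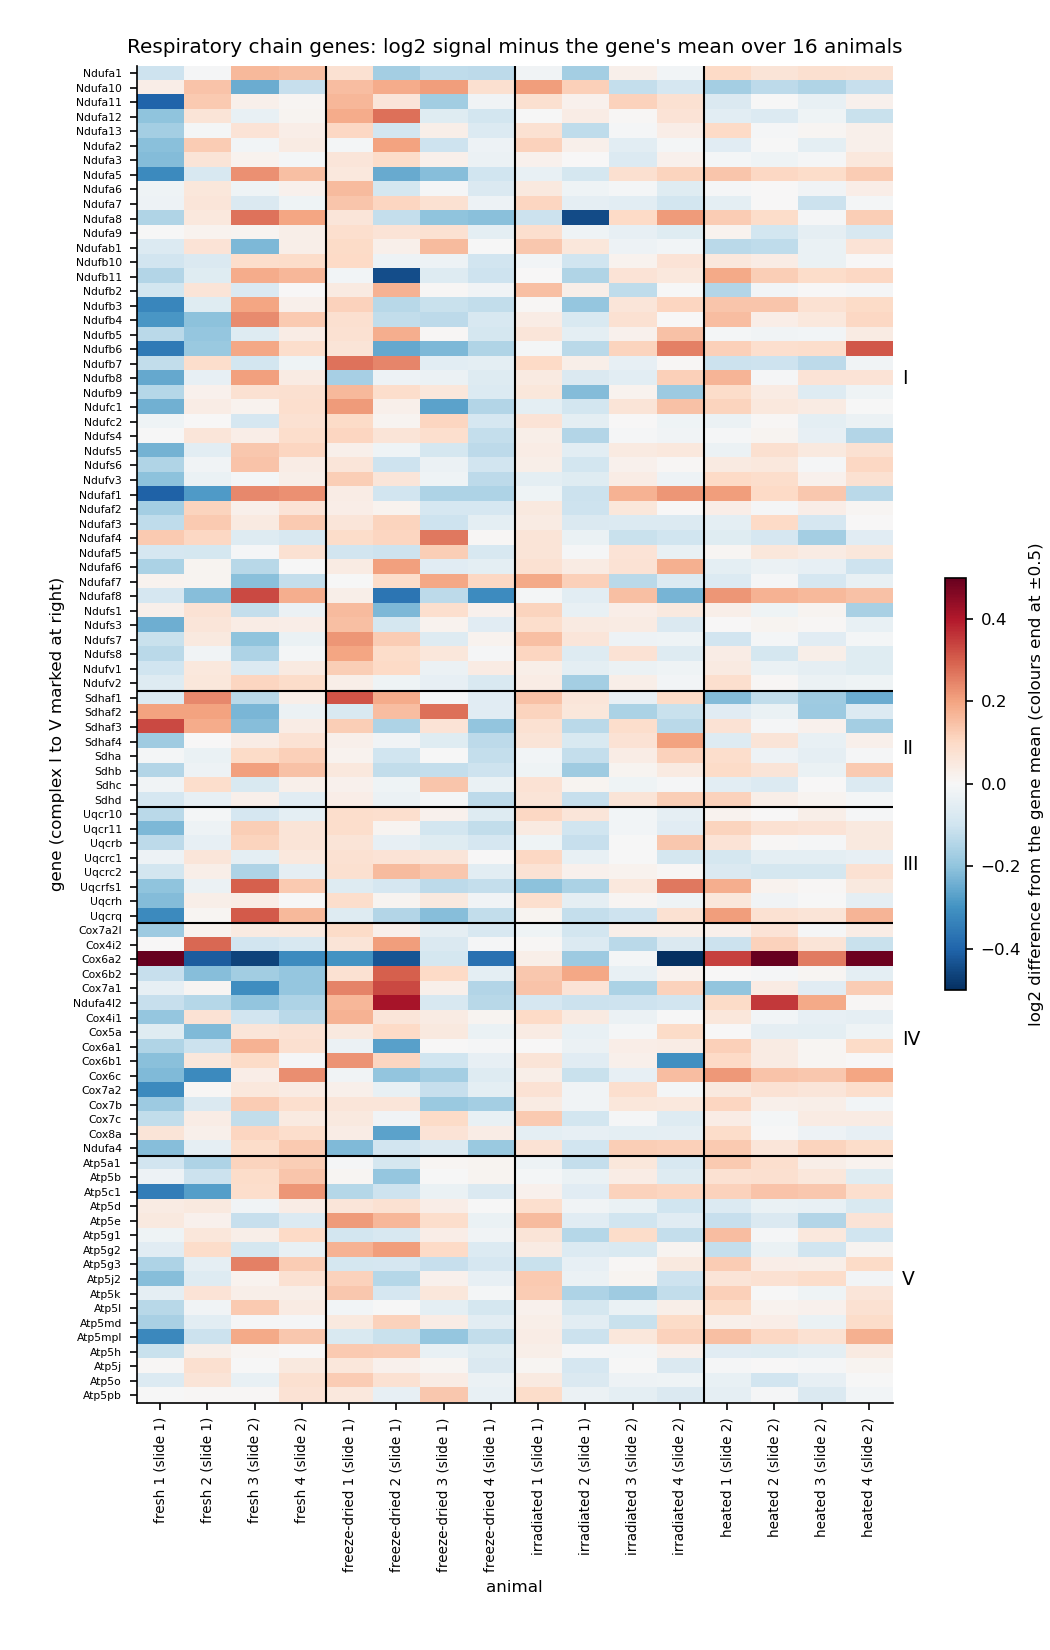
Level of 92 of the 93 tested members (rows, by complex) in each animal (columns, with group and slide), as the log2 difference from the gene's mean over 16 animals, with colours ending at ±0.5. Fresh animal 1 has the lowest median (-0.13), and Cox6a2 is the row with the strongest colours.

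In complex I, the core subunits Ndufs1 and Ndufv1, which take electrons from NADH into the iron-sulphur chain, showed small differences. Ndufs1 differed by 0.02 (SE 0.078) for freeze-dried minus fresh, by 0.03 for irradiated minus freeze-dried and by -0.05 for heated minus freeze-dried. Ndufv1 differed by 0.08 (SE 0.053), -0.08 and -0.08. None of the 7 core subunits was called in any comparison (adjusted p over 0.05, limma).

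Ndufa10, an accessory subunit of the complex I membrane arm, had the smallest p of all members for heated minus freeze-dried. Its levels were 4.34, 4.45, 4.06 and 4.20 in fresh, 4.46, 4.50, 4.52 and 4.39 in freeze-dried, 4.52, 4.43, 4.19 and 4.23 in irradiated and 4.14, 4.18, 4.16 and 4.19 in heated animals. The heated animals lay below all freeze-dried ones. The difference was -0.30 (SE 0.086, adjusted p = 0.065, limma) and was -0.03 (adjusted p = 0.966) with slide as a block. The levels followed the slide: the 2 fresh and 2 irradiated animals on slide 2 were also low, and slide 2 minus slide 1 was -0.27 in fresh and -0.26 in irradiated animals. A second probe of Ndufa10 gave -0.25 for heated minus freeze-dried (adjusted p = 0.040, limma) and -0.09 (adjusted p = 0.799) with the block. The adjustment to 0.040 covered all kept probes of members and the brightest kept probe of each other gene or feature.

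The assembly factors of complex I, which help build it and are not part of the finished enzyme, comprised 8 members. Ndufaf4 had the smallest p of complex I for irradiated minus freeze-dried. It was at 1.90, 1.88, 1.71 and 1.69 in fresh, 1.87, 1.88, 2.04 and 1.78 in freeze-dried, 1.84, 1.74, 1.66 and 1.67 in irradiated and 1.71, 1.69, 1.60 and 1.72 in heated animals. Irradiated and freeze-dried animals overlapped through irradiated animal 1, whereas all heated animals lay below all freeze-dried ones. The differences from freeze-dried were -0.16 (SE 0.069, adjusted p = 0.685) for irradiated and -0.21 (adjusted p = 0.092) for heated, and -0.09 and -0.05 with slide as a block. Ndufaf8 was at -0.66, -0.79, -0.25 and -0.39 in fresh, -0.55, -0.94, -0.71 and -0.89 in freeze-dried, -0.59, -0.63, -0.43 and -0.81 in irradiated and -0.36, -0.40, -0.41 and -0.43 in heated animals. Heated animals lay above all freeze-dried ones, by a mean of 0.37 (SE 0.118, adjusted p = 0.084) and by 0.17 with the block. Ndufa8, with the widest range of complex I, was at 2.98, 3.18, 3.40 and 3.33 in fresh animals, 3.19, 3.01, 2.93 and 2.92 in freeze-dried ones, 3.02, 2.68, 3.23 and 3.34 in irradiated ones and 3.26, 3.22, 3.12 and 3.25 in heated ones. Its heated minus freeze-dried difference was 0.20 (SE 0.126) and turned to -0.16 with the block.

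Complex II, succinate dehydrogenase, also belongs to the citric acid cycle. None of its 4 subunits was called. Sdha, the flavoprotein, had the smallest p of the complex for freeze-dried minus fresh, at -0.09 (SE 0.062, adjusted p = 0.631). For heated minus freeze-dried, Sdha differed by 0.05, Sdhb, the iron-sulphur subunit, by 0.14, and the membrane anchors Sdhc and Sdhd by -0.07 and 0.07, with adjusted p from 0.307 to 0.635. These became, with slide as a block, -0.08, -0.06, -0.01 and -0.01, so Sdha, Sdhb and Sdhd changed sign. Sdhaf4, an assembly factor of Sdha, had the smallest p of the complex for irradiated minus freeze-dried, at 0.11 (SE 0.069, adjusted p = 0.714). Sdhaf1, which helps place iron-sulphur clusters in Sdhb, was at 2.23, 2.53, 2.16 and 2.33 in fresh, 2.61, 2.48, 2.29 and 2.24 in freeze-dried, 2.44, 2.36, 2.26 and 2.39 in irradiated and 2.08, 2.17, 2.12 and 2.05 in heated animals. Heated animals lay below all freeze-dried and all irradiated ones, and overlapped the fresh group through fresh animal 3. Heated minus freeze-dried was -0.30 (SE 0.091, adjusted p = 0.074). With slide as a block it was -0.19 (adjusted p = 0.786), and the slide difference within groups was -0.11 (adjusted p = 0.506).

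Complex III passes electrons from ubiquinol to cytochrome c. Its core proteins Uqcrc1 and Uqcrc2 differed by 0.04 (SE 0.050) and 0.15 (SE 0.060) for freeze-dried minus fresh, by -0.06 and -0.05 for irradiated minus freeze-dried and by -0.11 and -0.12 for heated minus freeze-dried. Uqcrc2 had the smallest p of the complex in the first of these (adjusted p = 0.468) and Uqcrc1 in the second (adjusted p = 0.771). Uqcrq, a small subunit, was at 5.69, 6.02, 6.32 and 6.17 in fresh, 5.95, 5.87, 5.80 and 5.89 in freeze-dried, 6.02, 5.89, 5.91 and 6.08 in irradiated and 6.22, 6.08, 6.07 and 6.18 in heated animals. Heated animals lay above all freeze-dried ones, by 0.27 (SE 0.104, adjusted p = 0.141), and by 0.05 with slide as a block. Uqcrfs1, the Rieske iron-sulphur protein, was at 3.91, 4.08, 4.41 and 4.24 in fresh, 4.04, 4.02, 3.98 and 3.99 in freeze-dried, 3.90, 3.95, 4.16 and 4.37 in irradiated and 4.29, 4.13, 4.12 and 4.16 in heated animals. All 8 animals on slide 2 lay above all 8 on slide 1. The heated minus freeze-dried difference of 0.16 (SE 0.109, adjusted p = 0.380) became -0.17 (adjusted p = 0.697) with the block.

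In complex IV, no ubiquitous subunit was called. For freeze-dried minus fresh, Cox4i1 differed by 0.16 (SE 0.062, adjusted p = 0.443), Cox5a by 0.08, Cox6a1 by -0.08, Cox6b1 by 0.06, Cox7a2 by 0.01, Cox8a by -0.10, Cox6c by -0.04, Cox7b by -0.05 and Cox7c by 0.06, and the supercomplex factor Cox7a2l by 0.02. For heated minus freeze-dried they differed by -0.08 for Cox4i1, -0.07 for Cox5a, 0.14 for Cox6a1, -0.01 for Cox6b1, 0.11 for Cox7a2, 0.04 for Cox8a and 0.03 for Cox7a2l, with adjusted p from 0.277 to 0.962, and Cox7b and Cox7c by 0.09 and 0.01. Cox6a1 and Cox7a2l changed sign with slide as a block, to -0.01 and -0.08. Cox6c, a further ubiquitous subunit, described after its values were seen, was at 5.05, 4.95, 5.30 and 5.50 in fresh, 5.25, 5.07, 5.10 and 5.21 in freeze-dried, 5.30, 5.16, 5.23 and 5.42 in irradiated and 5.48, 5.41, 5.4 and 5.47 in heated animals. Heated animals lay above all freeze-dried ones, by 0.28 (SE 0.101, adjusted p = 0.110, limma), and by 0.03 (adjusted p = 0.983) with slide as a block. Ndufa4, first assigned to complex I and now counted as a subunit of complex IV, had the smallest p of complex IV for irradiated minus freeze-dried and for heated minus freeze-dried. It was at 4.53, 4.70, 4.84 and 4.87 in fresh, 4.53, 4.65, 4.67 and 4.56 in freeze-dried, 4.82, 4.65, 4.87 and 4.86 in irradiated and 4.88, 4.81, 4.86 and 4.84 in heated animals. Freeze-dried animals were the lowest group, and their values overlapped those of irradiated animal 2 and of fresh animal 1. The difference from freeze-dried was 0.20 (SE 0.075, adjusted p = 0.685) for irradiated and 0.24 (SE 0.075, adjusted p = 0.078) for heated, and 0.11 and 0.06 with slide as a block.

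The tissue and condition isoforms of complex IV included the member with the largest difference in 5 of the 6 comparisons. Cox6a2, the heart and skeletal muscle form of Cox6a1, was at -0.97, -2.67, -2.71 and -2.57 in fresh, -2.55, -2.68, -2.34 and -2.62 in freeze-dried, -2.22, -2.43, -2.26 and -2.82 in irradiated and -1.91, -1.51, -1.99 and -1.76 in heated animals. All heated animals lay above all freeze-dried and all irradiated ones and above every fresh animal except fresh animal 1. Heated minus freeze-dried was 0.76 (SE 0.302, 95% interval 0.11 to 1.4, adjusted p = 0.147, limma), a 1.69-fold difference. Without fresh animal 1, which is not part of this comparison but enters the shared estimate of the spread, the same difference had an adjusted p of 0.012, heated minus fresh was 0.86 (adjusted p = 0.018) and Cox6a2 was also called between irradiated and heated. Atp5mpl, Ndufa4 and Uqcrq also passed for heated minus freeze-dried without fresh animal 1 (limma, adjusted p from 0.039 to 0.048). Over all 16 animals heated minus fresh of Cox6a2 was 0.44 (limma, adjusted p = 0.485). With slide as a block heated minus freeze-dried was 1.27 (adjusted p = 0.366), and 0.87 (adjusted p = 0.230) in that fit without fresh animal 1. Slide 2 minus slide 1 was -0.82 in fresh and -0.21 in irradiated animals. The fresh value rests on fresh animal 1: over both groups the slide difference was -0.52 with it and -0.12 (SE 0.147) without it. Without the 4 animals low in Hoxb5 heated minus freeze-dried was 0.56 (adjusted p = 0.572), and in the authors' deposited values it was 0.65 (adjusted p = 0.999).

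Skeletal muscle markers were set beside Cox6a2, and their part in its levels was not tested. The summed muscle markers were 17.0 in fresh animal 1 and 1.75 to 2.10 in the other fresh animals, 1.86 to 2.40 in freeze-dried, 1.8 to 1.91 in irradiated and 1.60 to 1.75 in heated animals. The heated sums were thus at or below those of all other animals. In heated animals Acta1 (-1.59 to -1.28) and Myh3 (-2.80 to -2.41) overlapped the levels of the animals other than fresh animal 1. Ckm, muscle creatine kinase, was above background in fresh animal 1 alone, at -1.71, and below background in every heated animal. The fast troponin gene Tnnc2 was at 1.94 in fresh animal 1 and between -4.31 and -3.67 in heated animals. The cardiac markers summed to between 0.62 and 0.65 in heated and between 0.53 and 0.67 in the other animals. Cox8b, a second muscle isoform, was above background only in fresh animal 1, at -3.67, and freeze-dried animal 1, at -4.86, the animal with the next highest muscle sum, 2.40. Cox7a1, a further heart and muscle isoform, was at 0.34, 0.40, 0.08 and 0.19 in fresh and at 0.19, 0.43, 0.33 and 0.51 in heated animals and so did not stand out in fresh animal 1. Cox7b2 was above background in 7 animals, not in all of any group, and Cox8c, a testis isoform, in none.

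**Figure D3:**
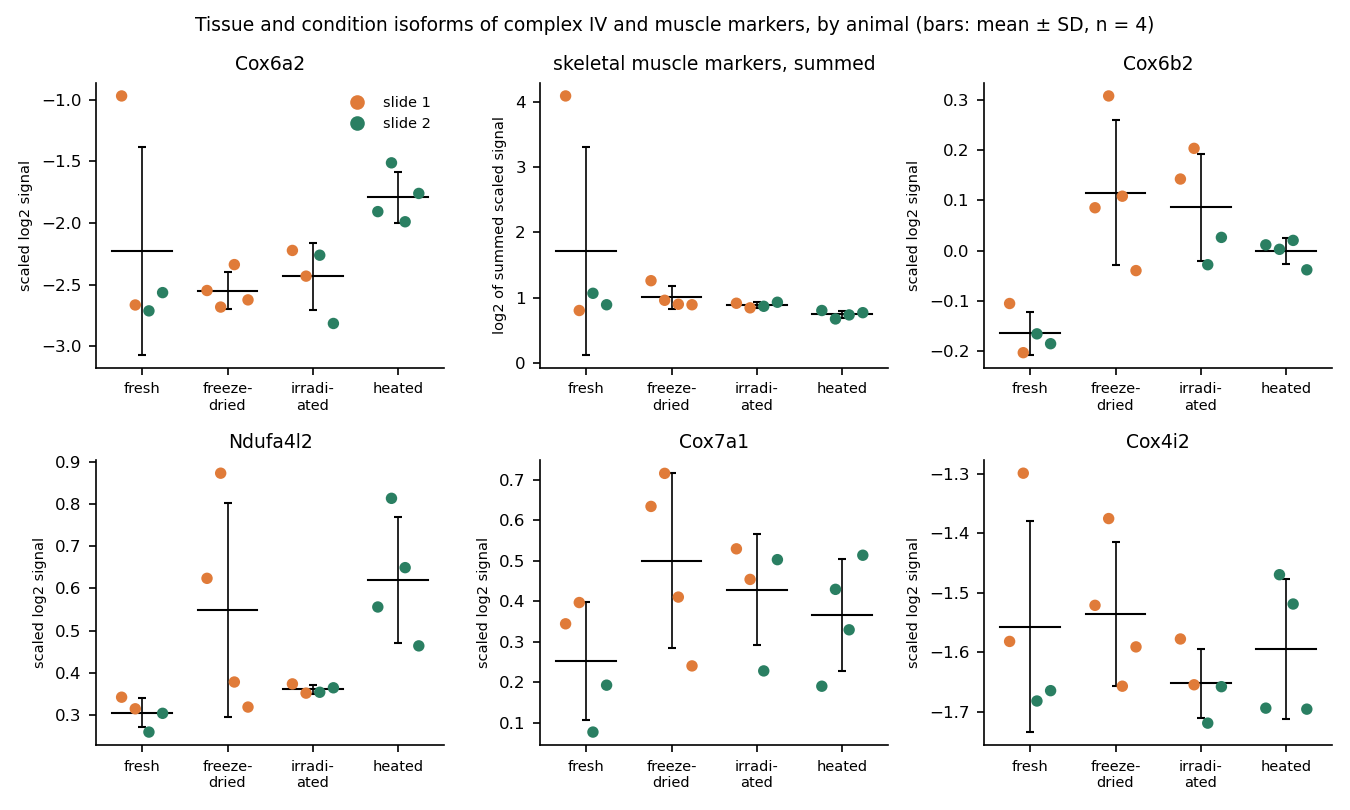
Scaled log2 signal (y axis, a different range in each panel) of 5 complex IV isoforms and log2 of the summed skeletal muscle markers, by group (x axis); points are animals coloured by slide, with the mean ± SD of 4 animals. Fresh animal 1 is high for Cox6a2 (-0.97) and for the muscle sum. The heated animals are high for Cox6a2 (-1.99 to -1.51), with muscle sums at or below those of the other animals.

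Cox6b2, the testis form of Cox6b1, had the smallest p of all members for freeze-dried minus fresh. It was at -0.11, -0.20, -0.17 and -0.19 in fresh, 0.09, 0.31, 0.11 and -0.04 in freeze-dried, 0.14, 0.20, -0.03 and 0.03 in irradiated and 0.01, 0.00, 0.02 and -0.04 in heated animals. Every animal from freeze-dried sperm lay above every fresh animal. The differences from the same 4 fresh animals were 0.28 (SE 0.070, adjusted p = 0.333) for freeze-dried, 0.25 (adjusted p = 0.094) for irradiated and 0.16 (adjusted p = 0.236) for heated, and were 0.23, 0.25 and 0.21 with slide as a block. None was called. In the authors' deposited values irradiated minus fresh was 0.23 and passed (adjusted p = 0.029, limma). The 3 germ cell markers summed to 0.17 to 0.21 in fresh, 0.19 to 0.26 in freeze-dried, 0.21 to 0.28 in irradiated and 0.22 to 0.33 in heated animals, with between 1 and 3 of them above background. The 2 that were tested, Ddx4 and Sycp3, were not called in any comparison, and their part in the Cox6b2 differences was not tested.

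Ndufa4l2, a hypoxia-inducible relative of Ndufa4 that is prominent in pericytes, was at 0.34, 0.32, 0.26 and 0.30 in fresh, 0.62, 0.87, 0.38 and 0.32 in freeze-dried, 0.37, 0.35, 0.35 and 0.36 in irradiated and 0.56, 0.81, 0.65 and 0.46 in heated animals. Heated animals lay above all fresh and all irradiated ones, whereas the freeze-dried group spanned both. Heated minus fresh was 0.32 (SE 0.103, adjusted p = 0.119) and 0.33 with slide as a block. Without freeze-dried animal 2 its adjusted p was 0.049. Summed hypoxia genes were 40.8 to 48.5 in heated, 34.0 to 36.6 in fresh, 33.7 to 40.2 in freeze-dried and 35.9 to 40.4 in irradiated animals. Summed pericyte markers were 26.6 to 29.2, 24.3 to 26.3, 25.8 to 30 and 25 to 28.1 in the same order. Both sums were above all fresh values in the heated group, and their part in the Ndufa4l2 difference was not tested. Cox4i2, the other isoform linked to low oxygen, was at -1.69, -1.47, -1.52 and -1.70 in heated and -1.58, -1.30, -1.68 and -1.66 in fresh animals, which overlapped (difference -0.04).

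In complex V, the F1 subunits Atp5a1 and Atp5b (SE 0.068 and 0.066) differed by -0.02 and -0.07 for freeze-dried minus fresh. They differed by -0.02 and 0.03 for irradiated minus freeze-dried and by 0.08 for each for heated minus freeze-dried. The last became -0.07 and -0.01 with slide as a block. Atp5g2, one of 3 genes for the same c-ring protein, had the smallest p of the complex in both of the first comparisons. It was at 6.09, 6.24, 6.06 and 6.11 in fresh, 6.32, 6.36, 6.25 and 6.08 in freeze-dried, 6.19, 6.08, 6.07 and 6.16 in irradiated and 6.03, 6.11, 6.05 and 6.16 in heated animals. The groups overlapped through freeze-dried animal 4. The differences were 0.13 (SE 0.066, adjusted p = 0.539) for freeze-dried minus fresh and -0.13 (adjusted p = 0.703) for irradiated minus freeze-dried. Atp5mpl, a small subunit of the membrane part, had the smallest p for heated minus freeze-dried. It was at 5.06, 5.28, 5.58 and 5.52 in fresh, 5.31, 5.27, 5.19 and 5.26 in freeze-dried, 5.42, 5.28, 5.44 and 5.50 in irradiated and 5.54, 5.49, 5.46 and 5.57 in heated animals. Heated animals lay above all freeze-dried ones by 0.25 (SE 0.093, adjusted p = 0.122), and by 0.00 with slide as a block. By their brightest probes, the 4 subunits of the peripheral stalk, which holds F1 still, differed by -0.10 to 0.00 between heated and freeze-dried animals. None was called. Other probes of Atp5h, a subunit of this stalk, gave 0.34 and -0.05, or 0.24 and -0.39 with slide as a block.

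Members whose groups do not overlap were counted beside the same share over all genes. For freeze-dried against fresh these were 3 members (3.23%, beside 4.16% of all genes), 2 higher, namely Cox6b2 and Ndufs8, and 1 lower. For irradiated against freeze-dried there were 0 (0%, beside 4.61%). For heated against freeze-dried there were 23 (24.7%, beside 20.3%), 17 higher and 6 lower. Irradiated against fresh gave 5 (5.38%, beside 9.09%), 3 higher, namely Cox6b2, Ndufa4l2 and Ndufaf6, and 2 lower, among them Cox8a. Heated against fresh gave 5 (5.38%, beside 11.3%), namely Cox6b2, Ndufa4l2 and Uqcr10, higher, and Atp5d and Atp5pb, lower, and irradiated against heated gave 8 (8.6%, beside 13.1%). Ndufs8, Ndufaf6, Uqcr10 and Atp5pb were named after their values were seen. Heated and freeze-dried animals share no slide, so their difference with slide as a block is the plain difference minus the slide difference. The counts that follow all rest on that subtraction and are not separate results. The same shares over all genes were not counted for them. Of the 23 members that separated heated from freeze-dried animals, 22 had a slide difference of the same sign within the fresh and irradiated groups. The median size of their difference was 0.21 without the slide and 0.052 with slide as a block, where 13 kept their sign. Cox6a2 was the only one of the 23 whose difference grew in the same direction with the block, to 1.27 with fresh animal 1 and to 0.87 without it.

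**Figure D4:**
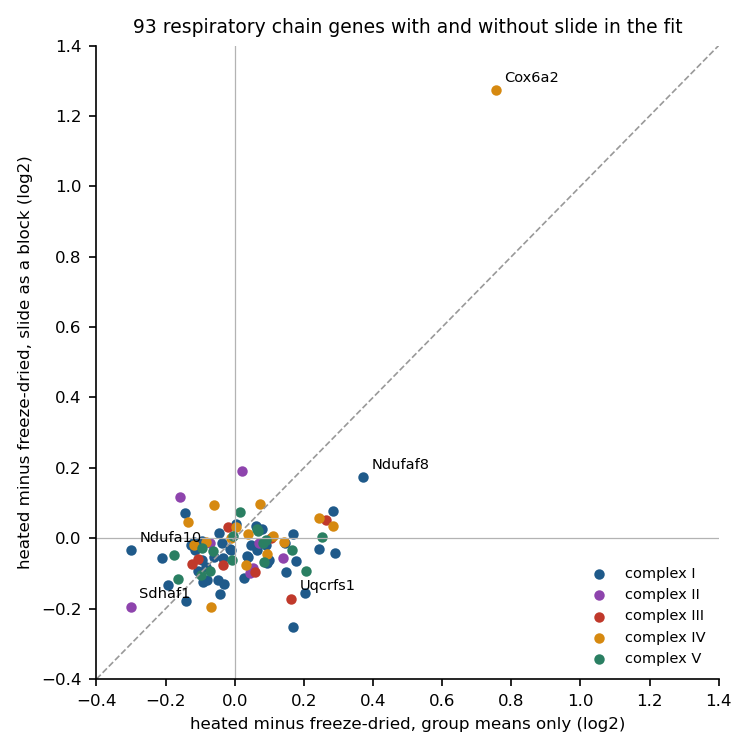
Heated minus freeze-dried difference (log2) of the 93 tested members from group means alone (x axis) and with slide as a block (y axis), coloured by complex; the dashed line marks equal values. Most points lie near 0 on the y axis whatever their x value, Ndufa10 moves from -0.30 to -0.03, and Cox6a2 moves from 0.76 to 1.27, or to 0.87 when the block is fitted without fresh animal 1.

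Called members were found for the slide term. It rests on fresh and irradiated animals, where the 10 hindbrain and spinal cord markers also differed by slide. These summed to 6.2 and 0.058 in fresh animals on slide 1, and to 10.2 and 9.32 on slide 2. In irradiated animals they summed to 1.21 and 4.68 on slide 1, and to 7.76 and 8.18 on slide 2. Within these groups slide and this tissue content cannot be told apart. Slide 2 minus slide 1, fitted within groups, was called for 10 of 93 members (10.8%, beside 6.51% of all genes; limma, adjusted p under 0.05), 8 higher and 2 lower on slide 2. The higher ones were the assembly factor Ndufaf1 at 0.42 (SE 0.083), the complex I accessory subunits Ndufa8 at 0.36, Ndufb6 at 0.33 and Ndufa5 at 0.27, Uqcrfs1 at 0.33, and the complex V members Atp5c1 at 0.30, Atp5mpl at 0.25 and Atp5g3 at 0.20. The lower ones were Ndufa10 at -0.27 (SE 0.047, adjusted p = 0.012) and the assembly factor Ndufaf7 at -0.22. No complex II or complex IV member and no core subunit of complex I was called. Those of the 10 that are not described above were named after their values were seen. Without fresh animal 3 no member was called for the slide (limma, smallest adjusted p of 0.054), beside 0.733% of all genes. Without fresh animal 1 the slide term was called for 4 members, Ndufa10, Ndufaf1, Ndufaf7 and Uqcrfs1, beside 3.46% of all genes.

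**Figure D5:**
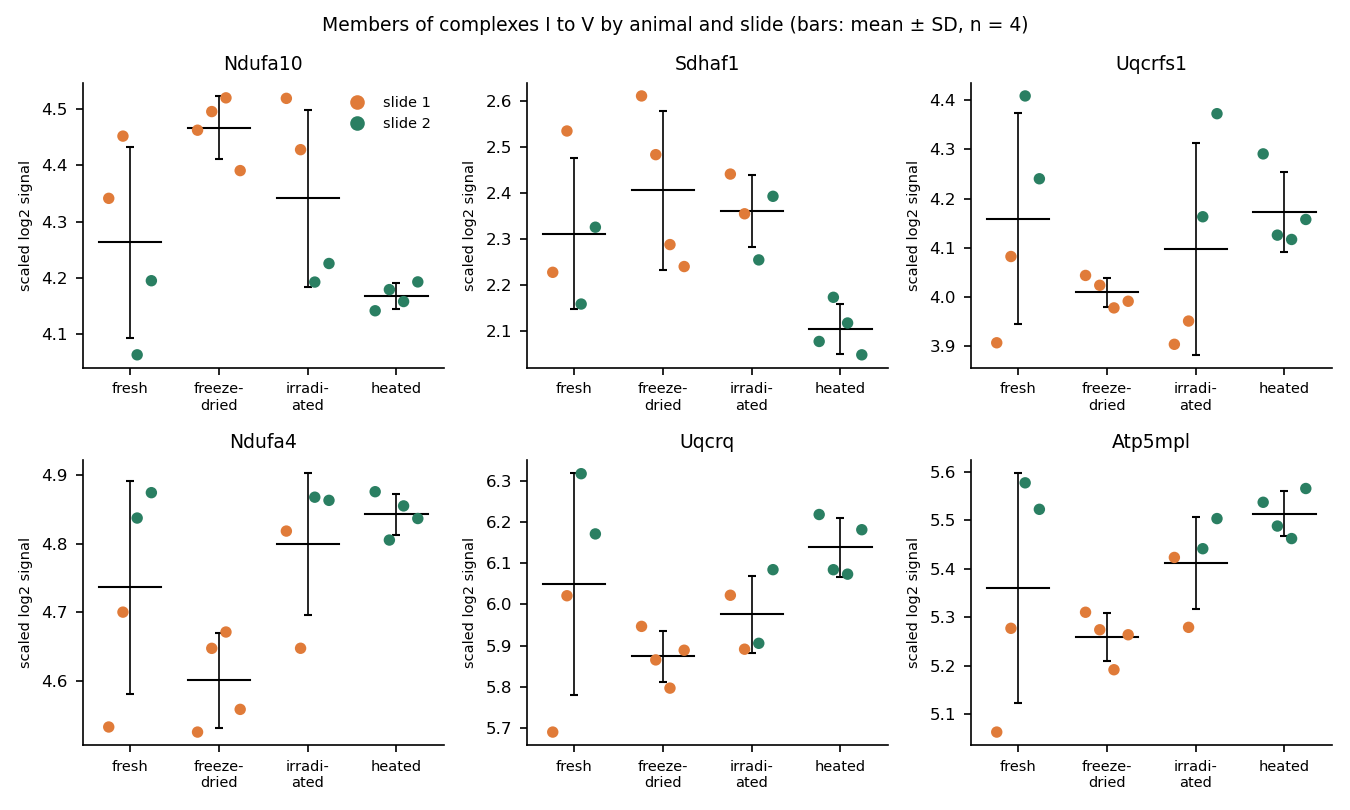
Scaled log2 signal (y axis, a different range in each panel) of 6 members of complexes I to V by group (x axis); points are animals coloured by slide, with the mean ± SD of 4 animals. For Ndufa10 all 8 slide 2 animals (4.06 to 4.23) lie below all 8 slide 1 animals (4.34 to 4.52), and for Uqcrfs1 they lie above.

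The slide difference was larger in fresh than in irradiated animals for several of these members, without a called difference between the groups. Among fresh animals it was called for 5 members (5.38%, beside 2.1% of all genes): Atp5c1 at 0.47, Atp5g3 at 0.29, Atp5mpl at 0.38, Ndufaf1 at 0.58 and Ndufb4, an accessory subunit of complex I, at 0.43. Among irradiated animals it was called for 0 (0%, beside 0.00755%), with 0.13 for Atp5c1, 0.10 for Atp5g3, 0.12 for Atp5mpl, 0.26 for Ndufaf1 and 0.06 for Ndufb4. At an unadjusted p under 0.05 there were 35 members (37.6%, beside 20.3%) among fresh and 5 (5.38%, beside 10.2%) among irradiated animals. Each contrast sets 2 animals against 2, and slide 1 holds fresh animal 1, with the high muscle markers. The median centred level of all members was -0.13 in that animal and 0.01 in fresh animal 2, against 0.02 and 0.04 in the fresh animals on slide 2. The part of fresh animal 1 in the fresh counts was not tested. The test of the difference between the groups called 0 members (0% of all genes; limma), with 5 at an unadjusted p under 0.05 (5.38%, beside 4.81%). Ndufa10 and Uqcrfs1 had nearly the same slide difference in both groups, -0.27 and -0.26 for Ndufa10 and 0.33 and 0.34 for Uqcrfs1.

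Different probes of the same member did not always give the same value. Of 20 members with several probes above background, 7 had probes of opposite sign for heated minus freeze-dried, and the median gap between a gene's highest and lowest difference was 0.10. Sdhb gave 0.14 by its brightest probe and -0.15 by another. Of the members outside the naming rule, Ndufaf5, an assembly factor of complex I, stood out after the probe values were seen. Its dim probe was at -2.04, -1.96, -1.77 and -1.71 in freeze-dried and at -1.36, -1.38, -1.39 and -1.21 in heated animals, a difference of 0.53 (adjusted p = 0.012) that was 0.38 (adjusted p = 0.399) with slide as a block. Its brightest probe gave 0.08 (adjusted p = 0.441). Which transcripts each probe reads was not examined, and many of these genes have processed pseudogenes, so values of single probes are uncertain.

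The pathways around the respiratory chain were measured in the same fits, where 3.86% of all genes were called for heated minus freeze-dried and 2.93% for heated minus fresh. Of 78 mitochondrial ribosomal protein genes, 1 was called for heated minus freeze-dried, Mrpl47, which fell by 0.21 (adjusted p = 0.046), and 0 in the other comparisons. Of 13 citric acid cycle genes, Idh3g, a regulatory subunit of isocitrate dehydrogenase, fell by 0.28 (adjusted p = 0.036) for heated minus freeze-dried and none was called elsewhere. None of 39 tested assembly factors outside the rule, 14 electron carrier genes (cytochrome c and coenzyme Q synthesis among them) or 16 regulators of mitochondrial biogenesis was called in any comparison. In glycolysis, 12 of 16 genes were higher in heated than in freeze-dried animals, with a median difference of 0.08, and 2 were called: Aldoa, an aldolase, rose by 0.22 (adjusted p = 0.041) and Ldha, a lactate dehydrogenase subunit, by 0.19 (adjusted p = 0.046). Against fresh, 3 were called in heated animals: Aldoa at 0.33, Gpi1, glucose-6-phosphate isomerase, at 0.28 and Ldha at 0.22. All 8 hypoxia response genes were higher in heated than in freeze-dried animals, with a median of 0.30 (0.22 with slide as a block), and 3 were called: Car9, a carbonic anhydrase, at 0.98 (adjusted p = 0.011), Adm, adrenomedullin, at 0.73 (adjusted p = 0.026) and Pdk1, a kinase that restrains pyruvate dehydrogenase, at 0.40 (adjusted p = 0.044). Against fresh, 5 of the 8 were called. With slide as a block none of the above heated minus freeze-dried calls remained (limma, adjusted p from 0.269 to 0.792). That fit called 0% of all genes for this comparison, so the loss is not particular to these genes. For heated minus fresh it called 1.53% of all genes. In that fit the heated minus fresh differences of Aldoa (0.30, adjusted p = 0.025), Ldha (0.24, adjusted p = 0.045), Car9 (1.15, adjusted p = 0.019), Adm (0.83, adjusted p = 0.042) and Vegfa (0.57, adjusted p = 0.034) were still called. The respiratory chain genes, in the same heated animals, had a median of 0.03 against fresh without the block, beside 0.03 over all genes. With the block their median was -0.006, beside 0.02, and 0 of 93 were called in either fit.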

How the data were processed

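Total RNA from 16 brains was labelled with Cy3 and hybridised to Agilent arrays, 1 animal per array, per the labels. The submitters' processing notes name Agilent Feature Extraction 11.0.1.1 as the authors' software. The deposited scanner files hold fluorescence intensity: a processed signal that the software background-subtracted and detrended, per the file headers, and raw median signals. The deposited value table holds log2 signals, used here as an alternative. Its columns have medians from 9.34 to 9.35 and correlate with the same arrays' scanner log2 signals at 0.999 to 1.00 across probes with slopes from 0.976 to 1.02, so its scale is log2, uncentred and in the same direction. Its normalization is not given in the sources used here, and 0 genes were called for the slide in it, against 1725 from the scanner values. The array design names genes by accessions, matched here to RefSeq symbols for 32994 of 56605 probes.

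The log2 processed signal was averaged over spots of a probe, without flagged outliers, and scaled by each array's 75th percentile. Probes had to be well above background in each of the 4 animals of some group, which left 34261. The brightest kept probe stood for a gene, giving 26479 genes and features. Group means were compared with limma 3.58.1 in R 4.3.3 (12 residual and 2.22 prior degrees of freedom), with Benjamini-Hochberg adjustment and a threshold of 0.05; the fit was tested on simulated data. The slide was fitted as a block beside it. Normexp correction used the median spot signal, because the files carry no mean spot signal. Precision is limited by the number of arrays. Members and gene lists were chosen with earlier results of these data known.

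Named genes were the member with the smallest p of each complex in the comparisons of freeze-dried with fresh, irradiated with freeze-dried and heated with freeze-dried, a fixed list of core subunits and isoforms, the 3 widest and 3 narrowest ranges, and up to 4 genes of each other list by p; members that passed any comparison would also have been named, and there were none. The values of 1 member are not reported here.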

Additional observations from a re-analysis of the deposited data

Results flagged for a closer look

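In 160 groups of 4 animals examined for the named members, 13 had an animal whose gap to the nearest other exceeded Dixon's 95% critical value, as a share of the group's range. At that level chance alone marks about 5% of groups, so several are to be counted on.

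Fresh animal 1 stood apart for 3 complex IV genes. Its Cox6a2 level of -0.97 was above the other fresh animals (-2.71 to -2.57), while Cox7a2 at 5.30 was below them (5.62 to 5.67) and Cox7a2l at 5.71 was below them (5.90 to 5.94). Freeze-dried animal 2 was the low animal for Cox6a1 at 7.30 (others 7.54 to 7.57), Cox8a at 6.28 (6.59 to 6.62) and Atp5b at 6.57 (6.76 to 6.77). Freeze-dried animal 1 was high for Sdhb at 5.53 (others 5.35 to 5.37) and for Cox8b at -4.85 (-7.65 to -7.49). Freeze-dried animal 4 was low for Ndufa9 at 2.90 (3.01 to 3.03). Heated animal 4 was low for Atp5b at 6.70 (6.82 to 6.84) and high for Uqcrc2 at 4.99 (4.82 to 4.84), and heated animal 1 was low for Uqcrc1 at 4.53 (4.57 to 4.58). Irradiated animal 2 was low for Cox8b at -7.72 (-7.06 to -7.04), where no irradiated animal was above background.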

How the results depend on the processing

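For 19 differences of named members recomputed under each alternative, the direction was kept throughout, while with slide as a block 37 of all 93 members, Uqcrfs1, Ndufa8, Sdha and Sdhb among them, changed sign for heated minus freeze-dried. The block without fresh animal 1, chosen after seeing the data, gave 0.87 for Cox6a2. Of 840 complex medians under the alternatives, 92 had the other sign than the reported one. The count of members called for heated minus freeze-dried rose from 0 to 1 with normexp (Ndufa10), beside 4.75% of all genes. It was 2 with the mean of a gene's probes (Ndufa10 and Ndufaf5), beside 3.81%. With the 8 arrays of those groups alone it was 8 of 93, beside 7.65%. These were Atp5c1, Atp5mpl, Cox6a2, Cox6c, Ndufa10, Ndufa4, Ndufaf8 and Uqcrq. Over single animals left out the count ran from 0 to 4, the 4 (Atp5mpl, Cox6a2, Ndufa4 and Uqcrq) without fresh animal 1, beside 5.87%. The other counts ran from 0 to 1 for heated minus fresh and for irradiated minus heated over animals left out, and 1 member (Cox6b2) was called for irradiated minus fresh in the deposited table. The slide count of 10 became 0 without the filter on dim probes, beside 0.585% of all genes, and 0 in the deposited table, beside 0%. It ran from 0 to 11 over animals left out. For heated minus freeze-dried, the median of complex II became -0.0355 and that of complex III -0.0656 with slide as a block, those of complexes II and V -0.0385 and -0.0537 with normexp, and that of complex III 0.104 with the mean of probes. For irradiated minus fresh, the median of complex V became 0.0356 with quantile normalization and 0.038 in the deposited table, and for irradiated minus heated 0.00294 in that table. On slide 1 alone the medians were 0.0967 for complex IV and 0.0553 for V (freeze-dried minus fresh) and 0.0886 for III, 0.116 for IV and 0.0295 for V (irradiated minus fresh). On slide 2 alone they were -0.0311 for I, -0.0125 for IV and -0.0774 for V (irradiated minus fresh) and -0.0366 for V (heated minus fresh). The median of complex I for irradiated minus fresh ran from -0.03 to 0.0463 over animals left out. The cause was not tested. Correlations of same-numbered deviations ran from -0.387 to 0.383, 10 of 24 above 0.1. No values for differently numbered animals stand beside them, and replicate number goes with slide in the fresh and irradiated groups. Whether the numbers pair the animals is therefore not settled. With the replicate block 0 members were called in any group comparison. Precision is limited by 4 animals per group.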
